A study of Homo sapiens with 4 samples.

Results

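Transcript levels of 44 germline and meiosis genes were examined in HAP1 cells that lack PRC1 activity. The genes were taken by symbol from a fixed list of meiotic, piRNA pathway and germ cell genes, and all 44 were found among the 57820 genes counted in each library. HAP1 is a human cell line that is nearly haploid, derived from a leukaemia and grown here untreated. RNA-seq was performed on 2 dKO libraries, from cells with RING1A and RING1B inactivated, and on 2 tKO libraries, from cells with BAP1 inactivated in addition. Every library therefore came from cells without the catalytic subunits of PRC1, and no library of cells with PRC1 was analysed here, so the levels below are levels without PRC1 and not changes caused by its loss. RING1A and BAP1 carried a STOP cassette, inserted in clones that were then picked, and RING1B had been inactivated in a purchased line. A level shared by the libraries of a genotype can therefore not be told apart from a property of its clone.

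Meiosis depends on proteins that are made in germ cells and are silent in most other cells. Cohesins containing STAG3, SMC1B, REC8 and RAD21L1 hold the axes of meiotic chromosomes, the synaptonemal complex joins the homologues, and SPO11 and DMC1 begin and carry out recombination. The piRNA pathway uses PIWI proteins and their Tudor domain partners to silence transposons in the germ line. In somatic cells many of these genes are kept silent by the variant complex PRC1.6, which is brought to promoters by E2F6 with its partner TFDP1 and by MGA with MAX, and by DNA methylation of CpG-rich promoters. BAP1 removes the ubiquitin that PRC1 places on lysine 119 of histone H2A. The comparison of tKO with dKO thus asks whether BAP1 affects these genes where that mark cannot be placed.

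Promoter sequences were read first, because the regulators named above act through them. Windows of 300 bases, from 250 before to 50 after the annotated start, were available from RefSeq for 36 of the 44 genes. They were searched for TCCCGC on both strands (GCGGGA is the same letters on the other strand), the core letters of E2F sites, and for CACGTG, the E-box read by MAX dimers, which reads the same on both strands. The windows printed are in GRCh38.p14, in lower case with these letters in capitals, and run 5′ to 3′ on the strand of the gene. The windows of the 5 genes with the highest level per kilobase among those with a window show how the most transcribed members differ. They lie at GTSF1 chr12:54473553-54473852 (minus strand), TDRKH chr1:151790451-151790750 (minus strand), SYCE2 chr19:12919244-12919543 (minus strand), SYCP2 chr20:59933588-59933887 (minus strand) and REC8 chr14:24171830-24172129 (plus strand).
GTSF1: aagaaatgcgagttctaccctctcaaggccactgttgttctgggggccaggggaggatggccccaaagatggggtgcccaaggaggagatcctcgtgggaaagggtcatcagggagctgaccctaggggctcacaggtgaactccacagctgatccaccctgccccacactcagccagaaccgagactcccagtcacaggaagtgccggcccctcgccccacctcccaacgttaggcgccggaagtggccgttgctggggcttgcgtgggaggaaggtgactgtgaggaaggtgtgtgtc
TDRKH: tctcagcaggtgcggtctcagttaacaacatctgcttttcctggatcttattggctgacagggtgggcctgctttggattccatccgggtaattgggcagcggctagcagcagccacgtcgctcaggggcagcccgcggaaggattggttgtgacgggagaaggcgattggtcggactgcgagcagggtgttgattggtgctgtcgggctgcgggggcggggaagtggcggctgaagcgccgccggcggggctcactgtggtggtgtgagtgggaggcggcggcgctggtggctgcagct
SYCE2: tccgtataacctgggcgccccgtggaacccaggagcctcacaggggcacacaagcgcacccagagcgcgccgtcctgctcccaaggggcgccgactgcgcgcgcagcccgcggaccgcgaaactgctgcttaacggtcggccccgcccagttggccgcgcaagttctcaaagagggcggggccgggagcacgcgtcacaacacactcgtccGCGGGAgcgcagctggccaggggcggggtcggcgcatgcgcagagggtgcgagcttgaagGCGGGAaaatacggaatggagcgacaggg
SYCP2: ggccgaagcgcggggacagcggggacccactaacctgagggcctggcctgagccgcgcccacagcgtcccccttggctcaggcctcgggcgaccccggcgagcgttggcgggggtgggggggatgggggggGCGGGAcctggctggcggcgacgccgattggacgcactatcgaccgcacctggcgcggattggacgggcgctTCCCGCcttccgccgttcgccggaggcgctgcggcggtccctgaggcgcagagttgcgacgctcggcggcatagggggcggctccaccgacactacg
REC8: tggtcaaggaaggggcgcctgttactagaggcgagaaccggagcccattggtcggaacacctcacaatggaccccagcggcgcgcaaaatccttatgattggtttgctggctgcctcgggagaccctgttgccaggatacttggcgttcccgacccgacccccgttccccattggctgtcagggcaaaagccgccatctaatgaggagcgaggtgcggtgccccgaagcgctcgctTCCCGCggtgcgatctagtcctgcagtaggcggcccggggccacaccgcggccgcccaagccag

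GTSF1 and TDRKH, the pair with the highest levels among members with a window, had neither motif in these windows. SYCE2 and SYCP2 each held TCCCGC 2 times and REC8 1 time. TEX15, which was above TDRKH in level, had no window. A further 5 windows, chosen after their letters were seen, show the motifs at genes with few or no counts. They lie at SMC1B chr22:45413550-45413849 (minus strand), SPO11 chr20:57329553-57329852 (plus strand), TDRD9 chr14:103928206-103928505 (plus strand), SLC25A31 chr4:127730150-127730449 (plus strand) and STK31 chr7:23709969-23710268 (plus strand).
SMC1B: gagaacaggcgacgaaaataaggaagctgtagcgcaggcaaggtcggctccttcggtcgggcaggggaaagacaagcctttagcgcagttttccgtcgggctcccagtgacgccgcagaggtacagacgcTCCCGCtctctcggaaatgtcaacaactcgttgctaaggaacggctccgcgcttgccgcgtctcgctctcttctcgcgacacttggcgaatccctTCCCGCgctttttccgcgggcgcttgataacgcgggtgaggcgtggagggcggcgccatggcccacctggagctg
SPO11: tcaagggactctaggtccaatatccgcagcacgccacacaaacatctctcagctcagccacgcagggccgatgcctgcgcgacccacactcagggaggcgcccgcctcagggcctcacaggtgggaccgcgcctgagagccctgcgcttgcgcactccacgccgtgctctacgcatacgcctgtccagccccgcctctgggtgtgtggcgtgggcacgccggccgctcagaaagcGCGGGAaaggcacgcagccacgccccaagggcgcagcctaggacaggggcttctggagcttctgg
TDRD9: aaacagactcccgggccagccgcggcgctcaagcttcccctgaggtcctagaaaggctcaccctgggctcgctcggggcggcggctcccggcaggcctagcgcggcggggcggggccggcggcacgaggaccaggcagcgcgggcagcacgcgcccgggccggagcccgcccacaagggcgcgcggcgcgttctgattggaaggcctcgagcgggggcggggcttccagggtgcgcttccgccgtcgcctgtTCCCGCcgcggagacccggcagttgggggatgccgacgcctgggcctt
SLC25A31: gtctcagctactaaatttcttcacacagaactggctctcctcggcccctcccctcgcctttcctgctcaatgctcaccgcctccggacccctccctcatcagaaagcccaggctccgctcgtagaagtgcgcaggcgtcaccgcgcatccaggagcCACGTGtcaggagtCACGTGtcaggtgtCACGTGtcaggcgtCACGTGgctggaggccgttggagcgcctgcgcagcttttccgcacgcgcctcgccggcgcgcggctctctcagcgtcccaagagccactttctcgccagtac
STK31: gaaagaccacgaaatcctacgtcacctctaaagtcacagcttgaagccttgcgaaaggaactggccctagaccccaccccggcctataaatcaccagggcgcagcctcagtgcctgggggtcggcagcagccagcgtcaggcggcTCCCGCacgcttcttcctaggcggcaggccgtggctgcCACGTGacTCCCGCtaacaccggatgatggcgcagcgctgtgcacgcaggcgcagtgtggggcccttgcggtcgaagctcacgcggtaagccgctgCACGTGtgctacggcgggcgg

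SMC1B held TCCCGC 2 times, SPO11 and TDRD9 1 time each, SLC25A31 had 4 E-boxes in a row, and STK31 had 2 copies of each motif. Over the 36 genes, 21 (58.3%) held TCCCGC in a window and 10 (27.8%) held CACGTG, 5 held both and 10 held neither. Among all 14998 protein-coding genes with a window the shares were 41.5% and 11.0%. The windows did not separate the detected members from the others by these letters. TCCCGC was in 6 of 10 detected members (60.0%) and in 15 of 26 that were not detected (57.7%), and CACGTG in 2 of 10 and 8 of 26. In protein-coding genes as a whole TCCCGC was found in 50.6% of those detected and in 21.7% of those not detected. A match of letters is a description of the window and does not show binding.

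The windows were also rich in CpG. The ratio of observed to expected CpG, taken from the window with the largest ratio per gene, was above 0.6 in 33 of 36 members (91.7%), against 71.7% of protein-coding genes. Of the 26 members that were not detected, 24 (92.3%) were above 0.6, while 31.1% of the protein-coding genes that were not detected were. The median ratio was 0.87 in these 26 members, 0.84 in the 10 detected members and 0.34 in the protein-coding genes that were not detected. The median of the detected protein-coding genes was 0.87. The exceptions below 0.6 were GTSF1 (0.35), DDX4 (0.12) and MSH4 (0.59). GTSF1 was the detected member with the highest level among those with a window. DNA methylation itself was not analysed here, and the annotated start may not be the one used in HAP1.

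**Figure D1:**
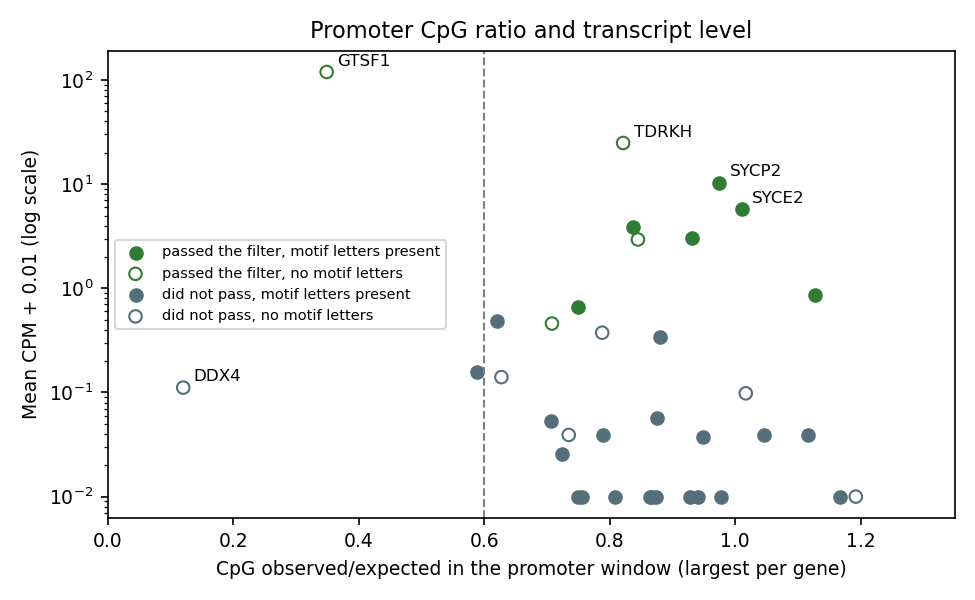
The ratio of observed to expected CpG in the promoter window (x axis, largest window per gene) against the mean level over 4 libraries (y axis, CPM plus 0.01, log scale) for 36 genes, with filled points for windows that hold TCCCGC or CACGTG and a dashed line at 0.6. GTSF1 stands alone at a low ratio and a high level, and the genes at 0 counts form a row at the bottom with ratios between 0.75 and 1.19.

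Detection was set at more than 0.5 CPM in at least 2 libraries, where CPM is the read count scaled to a library of 1000000 gene counts, the filter of the study. Of the 44 genes, 13 (29.5%) passed, against 64.8% of the 19404 protein-coding genes in the table. Another 5 had more than 10 counts over the 4 libraries but did not pass, 14 had between 1 and 10 counts, and 12 had no count in any library. A count of 0 over 68913953 gene counts in all allows a level of up to 0.0435 CPM, taking 3 counts as the floor, which covers counting error only. The same 0 in every library was found for 22.8% of protein-coding genes and 27.3% of the members. In single libraries the number of members above 0.5 CPM was 14 and 13 for the dKO libraries and 14 and 13 for the tKO libraries, so the genotypes did not differ in how many were seen. By role, 2 of 9 synaptonemal complex and axis genes, 2 of 4 meiotic cohesin genes, 2 of 8 recombination genes, 4 of 15 piRNA pathway genes and 3 of 8 other germ cell genes passed.

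**Figure D2:**
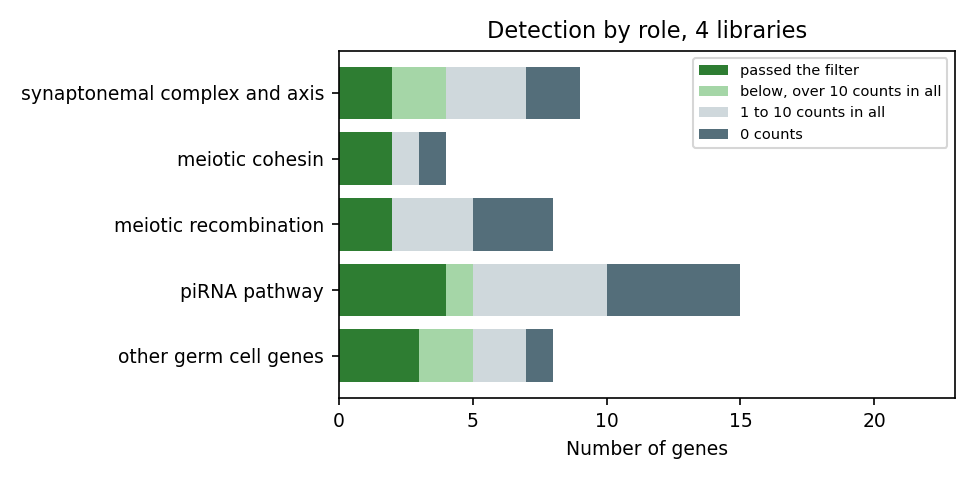
Numbers of genes (x axis) by role (y axis), divided by whether they passed 0.5 CPM in 2 libraries, had over 10 counts in all without passing, had 1 to 10 counts, or had 0 counts. Every role has both detected genes and genes with 0 counts.

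The 44 genes together took between 0.0312% and 0.0360% of the gene counts of a library, and TEX15 and GTSF1 held 81.1% of these. Levels between genes were compared as CPM per kilobase of exon, with exon lengths from a later annotation than the counts, which makes them approximate. On this scale GTSF1 was at 47.3 on average over the 4 libraries, higher than 94.6% of the genes tested, and TEX15 at 12.5, higher than 74.2%. TDRKH followed at 4.88 (48.4%) and SYCE2 at 3.87 (42.5%). The other 9 detected genes lay between 0.0929 for TDRD12 and 1.596 for SYCP2, above at most 25.7% of the genes tested. Most detected members were therefore transcribed at low levels.

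Among the piRNA pathway genes, GTSF1 (ENSG00000170627.5, GRCh37 chromosome 12, 54849734 to 54867386, minus strand) was the most abundant. It encodes a small zinc finger protein that assists PIWI proteins in transposon silencing. It was at 114 and 119 CPM in dKO and 118 and 126 CPM in tKO. The groups overlapped in CPM, though not after TMM scaling, and the difference in log2-CPM of 0.07 (SE 0.09, limma adjusted p = 0.996) had a 95% interval from -0.15 to 0.29. TDRKH (ENSG00000182134.11, chromosome 1, 151742583 to 151763892, minus strand), a Tudor protein on mitochondria that takes part in trimming piRNA precursors, was at 21.9 and 24.5 CPM in dKO and 26.1 and 26.9 CPM in tKO. Both tKO libraries lay above both dKO libraries, by 0.20 in log2-CPM (SE 0.14), which did not pass the test (limma adjusted p = 0.996). PIWIL4, the one PIWI gene that passed, had 72 and 76 counts in dKO and 68 and 91 in tKO. Its groups overlapped, with tKO 2 the highest. In the annotation used for positions, later than that used for counting, some of its exons overlap FUT4 on the same strand. Whether reads were lost to this overlap in counting was not tested, so its count is uncertain. TDRD12, another Tudor gene, was level across the libraries at 12, 12, 11 and 10 counts.

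The remaining piRNA genes were at or near the floor. PIWIL1, ASZ1, TDRD1, TDRD9 and FKBP6 had 0 counts in all 4 libraries. PIWIL2, MOV10L1, MAEL and TDRD5 had 2 counts in all, and DDX4, the germ cell helicase also known as VASA, had 7. TDRD6 had 5 and 6 counts in dKO and 12 and 2 in tKO, so that only tKO 1 was above the filter. PIWIL4 and GTSF1 were thus measured in cells where PIWIL1, PIWIL2 and MAEL stayed below the filter.

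Of the recombination genes, TEX15 (ENSG00000133863.2, chromosome 8), which takes part in meiotic repair and in silencing of transposons in the male germ line, was at 145 and 147 CPM in dKO and 134 and 166 CPM in tKO. The tKO libraries lay on either side of the dKO libraries, with a difference between genotypes of 0.04 in log2-CPM (SE 0.12, limma adjusted p = 0.996). DMC1, the meiotic strand exchange recombinase, had 53 and 64 counts in dKO and 39 and 47 in tKO, and its groups overlapped in CPM. The genes that act before and after it were hardly counted. SPO11, which makes the meiotic breaks, and MEIOB had 0 counts. MSH4 had 10 counts in all, TEX11 9 and MEI1 3. MSH5 also had 0 counts. In the annotation used for positions it shares exons on its own strand with the readthrough gene MSH5-SAPCD1, also at 0. Where exons are shared in counting, reads are counted for neither gene, so no level can be given for MSH5.

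For the axis and the synaptonemal complex, SYCP2 and SYCE2 passed. SYCP2 (ENSG00000196074.8, chromosome 20, 58438619 to 58508710, minus strand), a lateral element protein, had 175 and 227 counts in dKO, 97 in tKO 1 and 213 in tKO 2. Library tKO 1 was the lowest of the 4 and tKO 2 the highest in CPM, at 5.91 and 13.3 CPM. The tKO libraries differed by 1.13 in log2-CPM, the largest difference between replicates among the detected members, against 0.39 between the dKO libraries. The difference between genotypes was -0.30 (SE 0.37, limma adjusted p = 0.996), turned positive without tKO 1 (0.27) and was -0.86 without tKO 2, so its sign rests on a single library. SYCE2, a central element protein, had 95 and 135 counts in dKO and 81 and 84 in tKO, with dKO 2 above the others. In the annotation used for positions it overlaps GCDH on the opposite strand, and the other strand column held 17 to 43 reads per library. The unstranded column of SYCE2 held 73 and 88 reads in dKO and 59 and 79 in tKO, fewer than its counts, so its level is uncertain. Its log2 fold change was -0.28, and -0.07 with unstranded counts. SYCP3, the partner of SYCP2 in the lateral element, had only 10 and 4 counts in dKO and 7 and 2 in tKO. TEX12 had 5, 4, 3 and 0 counts, and SYCP1, SYCE3 and HORMAD1 had 1, 2 and 1 counts in all. SYCE1 and HORMAD2 had none. SYCP1 encodes the transverse filament protein, and its single count lay in tKO 2.

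The meiotic cohesin genes were divided. REC8, the meiotic kleisin, had 78 and 57 counts in dKO and 76 and 58 in tKO. In the annotation used for positions it overlaps IPO4 on the opposite strand, and the other strand column held 13 to 27 reads per library. STAG3 had 49 and 63 counts in dKO and 47 and 50 in tKO. In both genes the genotypes overlapped, and the differences in log2-CPM were 0.16 (SE 0.28) and -0.03 (SE 0.27), each at a limma adjusted p of 0.996 or higher. With unstranded counts these differences were 0.27 and -0.24. STAG3 has near-identical partial copies in the genome, where reads that map to several places were left out, so its count is uncertain. SMC1B had 0 counts and RAD21L1, the other meiotic kleisin, had 0, 3, 1 and 2. In the annotation used for positions RAD21L1 overlaps SNPH on its own strand. Whether this lowered its count was not tested, so the count is uncertain.

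The largest difference between genotypes was in TEX19 (ENSG00000182459.4, chromosome 17, 80317123 to 80321651), a germ line and placental gene linked to control of transposons. It had 36 and 45 counts in dKO and 70 and 46 in tKO, or 1.95, 2.501, 4.26 and 2.87 CPM. Both tKO libraries lay above both dKO libraries, but the tKO libraries were further apart than the dKO libraries. The difference in log2-CPM was 0.64 (SE 0.32) with a 95% interval from -0.12 to 1.40, and did not pass the test (limma adjusted p = 0.996). It was 0.35 without tKO 1 and 0.93 without tKO 2. TAF7L, a germ cell paralogue of a TFIID subunit, had 16 and 14 counts in dKO and 10 and 19 in tKO, so the tKO libraries enclosed the dKO libraries. TEX101, a surface protein of germ cells, had 10 and 7 counts in dKO and 5 and 9 in tKO, at the edge of detection. SOHLH2, a germ cell transcription factor, with 9, 7, 13 and 4 counts, and TEX14, with 6, 9, 4 and 7, fell just short of it. In the annotation used for positions each shares exons on its own strand with another gene at 0 counts. These are the readthrough CCDC169-SOHLH2 for SOHLH2 and IGBP1C for TEX14, so the counts of both are uncertain. STK31 had 3 counts, all in tKO 2, SLC25A31 had 2 in dKO 1, and BRDT had none.

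**Figure D3:**
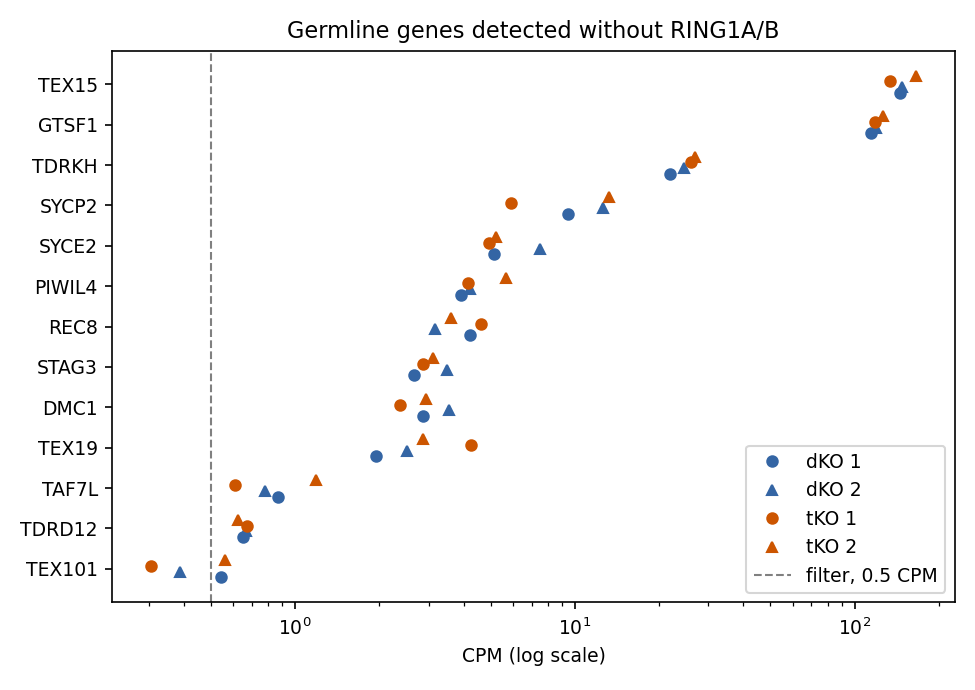
CPM (x axis, log scale) of the 13 detected genes (y axis) in each library, with dKO in blue, tKO in orange, circles for replicate 1 and triangles for replicate 2, and a dashed line at 0.5 CPM. TEX15 and GTSF1 lie above 100 CPM in every library, and the genotypes are intermingled for 11 of the 13 genes.

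Across the 13 detected genes no effect of BAP1 was found. None was differentially expressed (DE, an adjusted p under 0.05 together with a change of over 2-fold) in limma, with the edgeR quasi-likelihood test or with DESeq2, and 0 had an unadjusted p-value below 0.05 with any of these tools. Over the 15136 genes tested 0.0132% were DE and 3.55% had such a p-value in limma. The groups did not overlap in CPM for 2 of the 13 genes (TEX19 and TDRKH, both higher in tKO), against 31.4% of all genes, and in 15.1% of all genes both tKO libraries lay above both dKO libraries. None exceeded 2-fold between genotypes, where 1.78% of all genes did. The log2 fold changes ran from -0.30 (SYCP2) to 0.64 (TEX19), 7 above and 6 below 0 (49.7% of all genes were above), with a median of 0.04 beside -0.00137 for all genes. The median size of the difference was 0.16 between genotypes, each the mean of 2 libraries, 0.28 between the dKO libraries and 0.29 between the tKO libraries. The tKO libraries were over 2-fold apart in 1 of the 13 genes (SYCP2) and in 6.04% of all genes, the dKO libraries in 0 of the 13 and in 1.5%. The limma 95% intervals of SYCP2, TEX19, TAF7L and TEX101 reached past a 2-fold change. DESeq2 gave each of the 13 genes a larger standard error than limma did. It was 0.958 for TDRD12, 0.483 for DMC1, 0.441 for REC8, 0.404 for PIWIL4 and 0.377 for SYCE2. The missing calls therefore do not show that the 13 genes were unchanged. With 2 libraries per genotype an exact permutation test could not give a p-value below 0.333, and none was used.

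**Figure D4:**
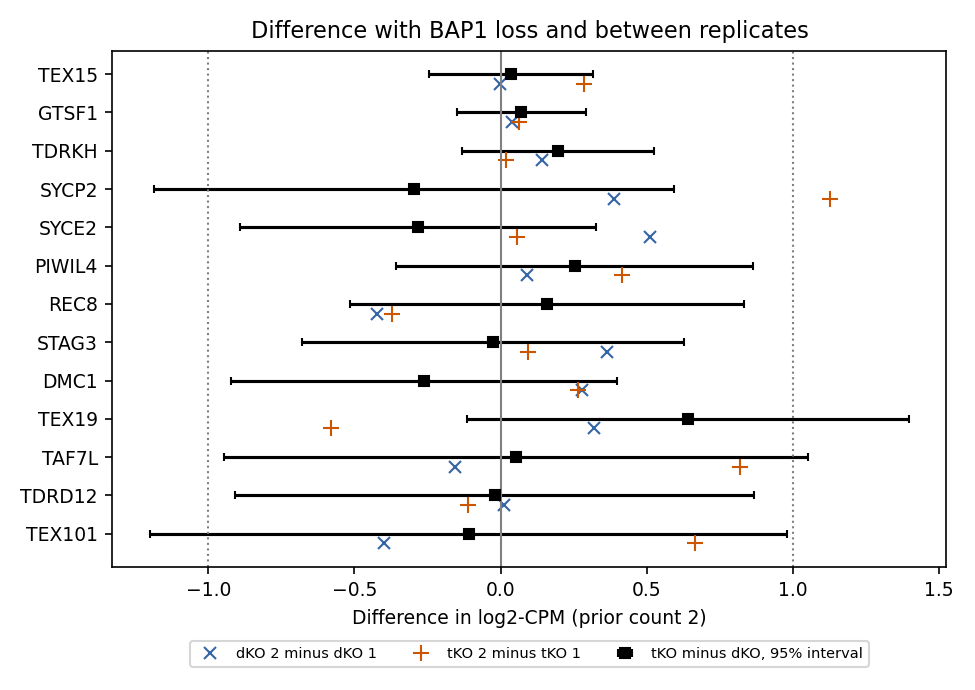
Difference in log2-CPM between tKO and dKO (squares, with the 95% interval from limma) for the 13 detected genes, beside the difference between the replicates of dKO (crosses) and of tKO (plus signs), with dotted lines at -1 and 1. Every interval includes 0. In most of the 13 genes, SYCP2 among them, the tKO replicates are further apart than the genotypes.

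Most of the regulators listed for this class were transcribed in all libraries. The 15 genes of the PRC1.6 list all passed the filter. PCGF6, the subunit that defines the complex, was at 19.1 and 20.5 CPM in dKO and 21.8 and 21.1 CPM in tKO, and E2F6 at 28.3 and 27.5 CPM in dKO and 30.6 and 27.97 CPM in tKO. MGA was at 227 and 226 CPM in dKO and at 181 and 224 CPM in tKO, with tKO 1 the lowest. RNF2, which encodes RING1B, was still transcribed (77.0, 86.8, 76.9 and 68.6 CPM), and RING1, which encodes RING1A, had 12, 17, 12 and 13 counts. BAP1 fell from 111 and 112 CPM in dKO to 9.63 and 6.66 CPM in tKO, as the labels state (log2 fold change -3.77, SE 0.19, limma adjusted p = 0.0065). Of 9 DNA methylation genes matched, 8 passed, while UHRF1 had no match and was not measured. The maintenance enzyme DNMT1 was at 374, 340, 368 and 362 CPM, DNMT3B at 36.2, 35.7, 36.0 and 40.2 CPM and DNMT3A at 24.8, 22.7, 23.9 and 22.2 CPM, whereas DNMT3L, the germ line cofactor, had 0 counts. None of the 23 genes tested from both lists passed the test, with limma, edgeR or DESeq2, and 0 had an unadjusted p-value below 0.05 in each.

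Related germline genes outside the list gave a like picture. Of 47 further meiosis and piRNA genes matched, 15 (31.9%) passed the filter, close to the 29.5% among the members, and 21 had 0 counts. The most abundant were CCNB1IP1, a ubiquitin ligase linked to crossing over, at 89.4 to 108 CPM, MEIOC, a meiotic RNA regulator, at 55.1 to 73.8 CPM, PLD6, the mitochondrial enzyme of piRNA processing, at 38.5 to 54.3 CPM, TDRD7 at 24.9 to 29.1 CPM and BRME1 at 11.5 to 16.3 CPM. Several of these are also transcribed in somatic cells. MEIOC had 885 to 1328 counts per library but only 630 to 848 in the unstranded column. Its other strand column held 213 to 245 reads, so its level is uncertain. PLD6 also had fewer unstranded counts, 518 to 761 against 632 to 872. No gene of this list was DE with limma, edgeR or DESeq2, and 0 had an unadjusted p-value below 0.05 with these tools. HFM1, a meiotic helicase, was the least even, at 47 and 58 counts in dKO, 78 in tKO 1 and 20 in tKO 2. DAZL, a germ cell RNA-binding protein, had 24 and 32 counts in dKO, 26 in tKO 1 and 11 in tKO 2. It lies on the short arm of chromosome 3, where its 49 tested neighbours within 5 Mb on either side had a median difference of -0.87 in log2-CPM between tKO 2 and the dKO mean, against 0.06 for tKO 1. DAZL itself was lower by 1.04 in tKO 2, and the part of its neighbourhood in this was not tested. None of the 44 members lies on chromosome 3, and the 2 on chromosome 10, SYCE1 and TDRD1, had 0 counts.

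X-linked cancer-testis genes were at or near the floor. Of 21 matched, among them the MAGEA, MAGEC, SSX, GAGE and PAGE families, none passed the filter and 16 had 0 counts in every library. PAGE5 had the most, at 2, 4, 7 and 2 counts. Many of these genes have near-identical copies, and reads shared between copies were not counted, so low counts are uncertain. Of the primordial germ cell regulators, 4 of 7 passed. POU5F1 had 1282 and 1395 counts in dKO, 823 in tKO 1 and 2071 in tKO 2, TFAP2C was at 47.3 to 53.4 CPM, KIT at 46.2 to 58.7 CPM and PRDM1 at 1.68 to 3.49 CPM. NANOG had 1 count, and SOX17 and PRDM14 had none. POU5F1 has processed copies elsewhere in the genome and its count is uncertain to that extent. Of 7 testis somatic markers AMH alone passed, at 2.501 to 3.79 CPM. GATA4 had 6 and 8 counts in dKO and 4 and 23 in tKO, so that only tKO 2 was above 0.5 CPM. None of 7 blood cell markers passed, with PTPRC at 1 count and MPO, SPI1 and GATA1 at 0.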

How the data were processed

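Stranded mRNA libraries of HAP1 cells were sequenced. Reads were trimmed by the authors (cutadapt 1.12, Trim Galore 0.4.4), cleared of ribosomal RNA (bowtie 1.2) and mapped to GRCh37 (STAR 2.5.2b). The deposited values are raw read counts per gene of GENCODE release 19, from uniquely mapped reads, without normalisation. Of the 3 columns, that of the antisense orientation, which this kit gives, was used. It summed to between 16054590 and 18455410 counts per library, so that 3 counts were between 0.163 and 0.187 CPM. The other strand column held between 4.01% and 4.24% of stranded gene reads.

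Symbols, positions and exon lengths came from GENCODE release 44 lifted to GRCh37. Genes above 0.5 CPM in at least 2 libraries were fitted, 15136 in all, on log2-CPM with TMM library sizes (factors 0.990 to 1.009) and a prior count of 2 in edgeR (4.0.16), with genotype as the only term and a mean-variance trend in limma (3.58.1). The Benjamini-Hochberg adjustment covered all genes fitted. The filter, TMM, the model and the DE thresholds follow the study, while the prior count and trend were chosen here. The fit was tested on simulated data. The 44 genes and the other lists were chosen with earlier results of these data known. All 44 were to be named, with counts for each detected gene, and from related lists the 5 highest detected genes. Genes named beyond that were chosen after their values were seen. Labels describe replicates as separate samples and the study calls them biological, but p-values measure only the spread between them. Alternatives were limma-voom, edgeR quasi-likelihood, DESeq2 (1.42.0), no trend, RLE factors, library totals, other filters, unstranded counts, a prior count of 0.25, a replicate block and leaving out each library. 5 listed symbols had no match.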

Additional observations from a re-analysis of the deposited data

Results flagged for a closer look

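Reads on the strand of the gene itself, a column not used above, outnumbered the counts of 2 members in every library, and stood above the floor of 3 counts. For SYCP3 there were 485, 503, 598 and 435 such reads, 2021 in all, against 23 counts in the column used. SYCP3 shares exon bases with CHPT1 on the opposite strand, which had 3325 to 4650 counts per library. With unstranded counts SYCP3 would have passed the detection filter. For STAG3 there were 88, 97, 78 and 59 such reads, 322 in all, against 209 counts. No exon of an opposite-strand gene shared bases with STAG3 in the annotation used for positions. That annotation is a later release than the one used for counting, in which overlaps were not examined. The unstranded column of STAG3 held 98 and 103 reads in dKO and 81 and 71 in tKO. In every library this was below its stranded columns added together, and the reason was not tested. The source of the reads on the strand of SYCP3 and of STAG3 was not tested either.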

How the results depend on the processing

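The number of member genes that were DE was 0 in each of the 16 fits, including the replicate block, and that of the PRC1.6 and DNA methylation genes was 0 as well. Without tKO 1 TFDP2 and the related gene MEIOC passed the adjusted p alone in limma, with changes under the fold threshold. For the related germline genes it was 0 except without tKO 1, where HFM1 passed, a range of 0 to 1 over the fits that left out 1 library. SYCP2 had an adjusted p of 0.0169 in limma without tKO 2 at a log2 fold change of -0.86, below the fold threshold (adjusted p of 0.604 or higher in the other fits). Over all genes 2 were DE, against 25 with DESeq2, 13 with the replicate block, 1 with edgeR, without the trend, at CPM above 5 and with unstranded counts, 0 with no filter, and 0 to 480 when a library was left out, where a lone library was assumed to vary like the other group. With no filter, where 0 passed, an unadjusted p below 0.05 was reached by 1447 genes.

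Deviations of same-numbered libraries had a correlation of 0.0581 over all genes. This single value cannot show whether same-numbered libraries were handled together, which was not tested. The replicate block gave 13 DE genes over all genes, against 2 without it, and changed no call among the members. The 13 members detected became 22 at CPM above 0.1 and 5 at CPM above 5, and the 15 related genes became 8 at CPM above 5. The number of members whose groups do not overlap was 2, and 3 with TMM or RLE scaling or unstranded counts, alternatives added after the data were seen. Of 185 log2 fold changes of single members under an alternative, 11 changed sign and 174 kept sign and call. With unstranded counts TAF7L turned to -0.0129. The other changes of sign came from leaving out 1 library, where the range was -0.0521 to 0.37 for REC8, -0.21 to 0.16 for STAG3, -0.11 to 0.18 for TEX15, -0.36 to 0.46 for TAF7L, -0.31 to 0.22 for TEX101, -0.0755 to 0.0331 for TDRD12 and -0.86 to 0.27 for SYCP2. The cause was not tested. Depth limits the members at 0 to 10 counts, for which no difference could be detected.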
